A study of Homo sapiens with 4 samples.

Results

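RNA levels of 37 genes of DNA replication and S phase were compared in a pair of lines sorted for opposite states of a Wnt reporter. Both derive from MDA-MB-231, an established line of human triple-negative breast cancer. The 37 genes were taken as a named list of symbols matched to Ensembl gene IDs, and all 37 were found among the 43714 gene IDs of the count table. Both lines carry 7TGP, a stably transfected plasmid that puts EGFP under 7 copies of a TCF binding site, so that cells fluoresce when β-catenin acts with TCF/LEF factors. The reporter-positive line, MDA-MB-2317TGP-POS, was sorted to more than 80% EGFP-positive cells and is represented by 2 libraries. The reporter-negative line, MDA-MB-2317TGP-NEG, was sorted to more than 95% EGFP-negative cells and is represented by 2 libraries. The treatment labels read Control for the reporter-negative line and 7TGP vector transfected for the reporter-positive line, while the names of both lines hold 7TGP.

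Both lines were selected with 3 ug/mL puromycin for at least 5 passages, went through 8 rounds of sorting and expansion, and were grown in DMEM with 10% FBS. Each state is 1 line, and whether its 2 libraries grew as separate cultures is not stated. The p-values therefore rest on a library-to-library spread that may be technical, and a property of the line cannot be told apart from its reporter state. Total counts were 62539034 and 55894092 in the reporter-positive libraries and 63034563 and 58429705 in the reporter-negative libraries. AXIN2, a target of Wnt signalling, averaged 18.5 CPM (counts scaled to a common library size with TMM factors) in the reporter-positive line and 11.4 CPM in the reporter-negative line, a log2 fold change of 0.70 (edgeR, adjusted p = 5.26e-06). The mesenchymal markers VIM, CD44 and FN1 had means of 239 CPM or more in both lines, although VIM averaged 1300 CPM in the reporter-positive line and 2670 CPM in the reporter-negative line (log2 fold change -1.04; adjusted p = 1.91e-07). CDH1, EPCAM, ESR1 and PGR stayed at means of 5.78 CPM or less. ERBB2 stood at 64.1 CPM in the reporter-positive line and 81.1 CPM in the reporter-negative line (-0.34; adjusted p = 0.00108).

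Before S phase, the origin recognition complex, CDC6 and CDT1 load the MCM2 to MCM7 ring onto DNA, and CDC45 and the GINS proteins turn that ring into the active helicase. Primase, the replicative polymerases and the PCNA clamp then copy the strands, while ribonucleotide reductase, thymidylate synthase and thymidine kinase supply deoxynucleotides. Many of these genes are transcribed in waves under E2F factors, which are released from RB family proteins by cyclin-dependent kinases, and their RNA is widely used as a mark of proliferating tumour cells.

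Most of the 37 genes differed little between the lines, and those that passed the test were mainly higher in the reporter-positive line. At an adjusted p under 0.05 over all genes tested, 14 of the 37 rose in the reporter-positive line, 2 fell and 21 did not pass. The genes that rose were RRM2, GINS1, CDC45, GINS4, RFC3, POLA1, TK1, CDC6, FEN1, MCM4, RRM1, MCM2, TYMS and MCM7. E2F1 and MCM3 fell. The largest difference upward was that of RRM2, at 1.38-fold, and log2 fold changes (reporter-positive over reporter-negative, here and throughout) ran between -0.41 and 0.47 with a median of 0.18.

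Among all 30952 genes tested, 11.6% were called higher and 10.9% lower, and among the 12702 protein-coding genes whose mean level lay within the range of the 37 genes, 16.4% were higher and 17.0% lower. Against those shares stand 37.8% of the 37 genes higher and 5.41% lower. Both reporter-positive libraries lay above both reporter-negative libraries for 24 genes and below them for 8, and the libraries of the lines overlapped for 5. That is 64.9% above and 21.6% below, beside 28.2% and 29.5% of all genes tested. The count of higher genes depended on the scaling of the libraries. With total counts and no scaling factors, RRM2 and GINS1 were the 2 genes called higher, E2F1 and MCM3 remained lower, and calls upward made up 50% of all calls in the list in place of 87.5%. That setting shifted the middle of the whole distribution, the median over all tested genes, by -0.08 on the log2 scale. Without reporter-negative library 1, 3 genes were higher and 1 lower, and without reporter-negative library 2 these counts were again 3 and 1. Over all genes tested the share called higher was 7.33% with total counts, 7.16% without reporter-negative library 1 and 7.45% without library 2, beside 5.41%, 8.11% and 8.11% of the 37 genes. In these 3 settings the share of the 37 genes called higher was thus near that of all genes. The median log2 fold change of the 37 genes was 0.09 with total counts, 0.16 without reporter-negative library 1 and 0.18 without library 2, against 0.18 in the main fit. The share of all genes called lower was 13%, 6.22% and 7.05% in the same order, beside 5.41%, 2.70% and 2.70% of the 37. RRM2, GINS1 and E2F1 passed under all 13 settings, with adjusted p of at most 0.00355, 0.0274 and 0.0383. The 10 most abundant genes took 16.3% and 18.2% of counts in the reporter-positive libraries, against 14.5% and 12.1% in the reporter-negative libraries, and their part in the difference between scalings was not tested. These are bulk libraries, in which fewer cells in S phase and less RNA per cell cannot be told apart.

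**Figure D1:**
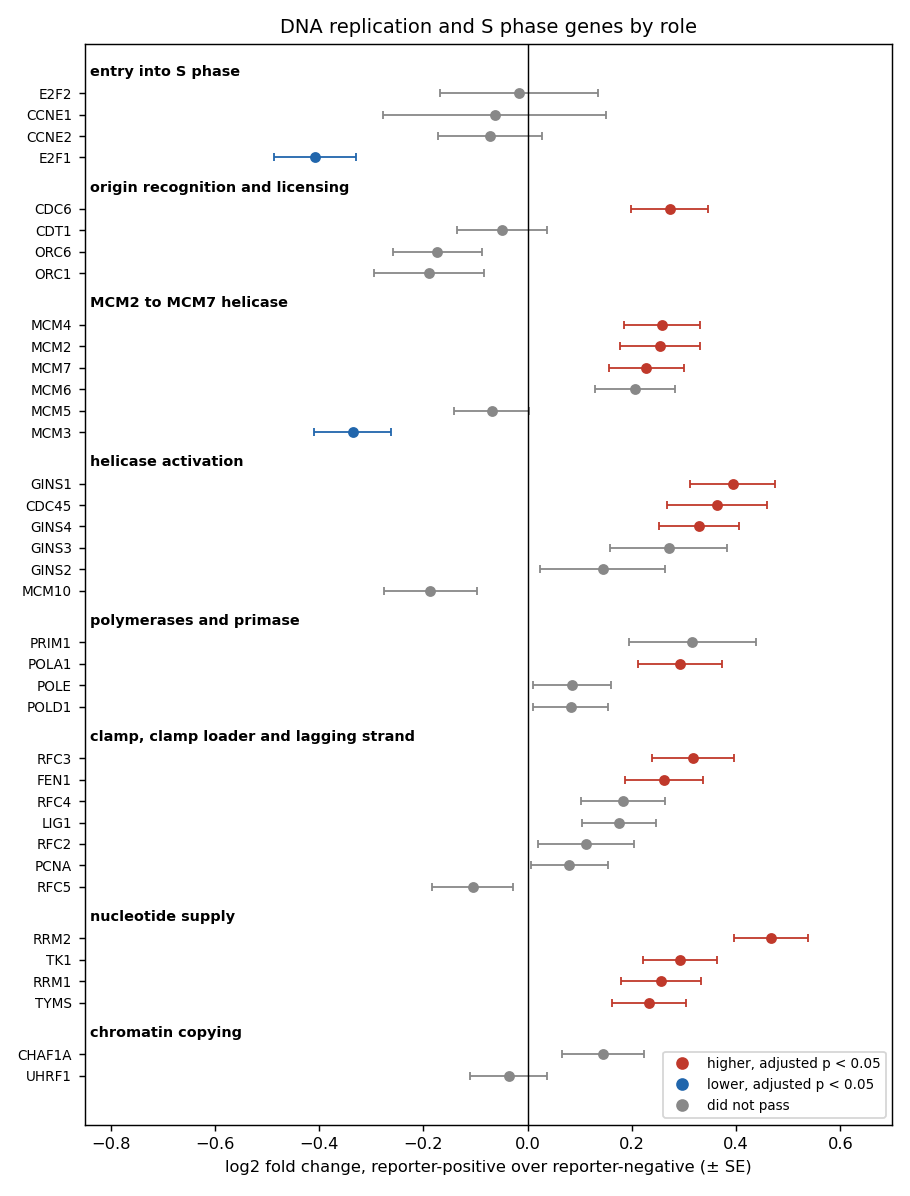
Log2 fold change of each of the 37 genes, reporter-positive over reporter-negative, on the horizontal axis, with genes grouped by role; points are edgeR estimates and bars are 1 standard error. All 4 genes of nucleotide supply lie to the right of 0 in red, and the 2 genes in blue to the left are E2F1 and MCM3.

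Promoters were read from RefSeq windows of 300 bases on GRCh38.p14, 250 before the gene's start and 50 after it, and 33 of the 37 genes matched 43 windows. The windows were searched on both strands for 4 spellings of the E2F site, TTTCCCGC, TTTCGCGC, TTTGCCGC and TTTGGCGC, of which those on opposite strands can overlap. At least 1 spelling was present in 18 of the 33 genes, and in 44.2% of their 43 windows, against 3.31% of all 35116 windows in the table. By outcome, 7 of the 12 matched genes that rose held it, 2 of the 2 that fell, and 9 of the 19 that did not pass. The letters CCAAT were in 62.8% of the windows, against 34.6% of all windows. The letters CTTTGA, the core that TCF factors bind, were in 1 of the 43 windows (2.33%), and the gene that held them was PCNA. They were in 12.9% of all windows and 10.6% of those of listed protein-coding genes. The letters GGGCGG were in 76.7% of the windows, against 45.0% of all windows. Windows were not matched for base composition, and its part in these shares was not tested. A match is a run of letters and not a measured binding site. Windows are printed below for the genes that differed most and for the MCM genes that moved in opposite directions.

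Of the 4 genes for entry into S phase, E2F1 fell and none rose. E2F1, which activates transcription of replication genes, stood at 28.3 and 26.6 CPM in the reporter-positive libraries and 34.6 and 38.2 CPM in the reporter-negative ones. The lines did not overlap, with means of 27.4 ± 1.21 and 36.4 ± 2.57 CPM (SD, n = 2 libraries each). The log2 fold change was -0.41 (SE 0.08; edgeR quasi-likelihood test, adjusted p = 0.000597). E2F1 lies at chr20:33675683-33686404 on the reverse strand (GENCODE release 29, GRCh38). Its promoter window, with 2 E2F spellings in capitals near the start, is shown because the gene both belongs to this factor family and fell.
E2F1 chr20:33686336-33686635: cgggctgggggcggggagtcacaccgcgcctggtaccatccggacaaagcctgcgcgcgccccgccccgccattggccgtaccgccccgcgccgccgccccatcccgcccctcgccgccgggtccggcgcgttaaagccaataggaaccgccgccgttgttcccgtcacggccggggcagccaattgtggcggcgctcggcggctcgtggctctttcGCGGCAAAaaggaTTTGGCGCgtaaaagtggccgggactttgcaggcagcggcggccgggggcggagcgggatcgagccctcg
Within each library, E2F1 was 1.05 and 0.954 times the geometric mean of the other 36 genes in the reporter-positive line, against 1.38 and 1.53 times in the reporter-negative line. This ratio uses no scaling between libraries, and its log2 difference was -0.54.

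The other 3 genes of the group did not pass. E2F2, a close relative of E2F1, had 4.00 and 3.99 CPM in the reporter-positive libraries, against 4.36 and 3.71 CPM in the reporter-negative libraries. CCNE1, a cyclin that activates CDK2 at the start of S phase, had 1.66 and 1.6 CPM, against 1.84 and 1.56 CPM in reporter-negative libraries. CCNE2, its relative, had 9.95 and 10.8 CPM, against 10.7 and 11.1 CPM in reporter-negative libraries. The values of the lines overlapped for E2F2, CCNE1 and CCNE2, and CCNE2 differed by -0.07 on the log2 scale (SE 0.10), less than its error. At an unadjusted p under 0.05 the count of genes in this group that were higher was 0, and DESeq2 and limma-voom each gave 0.

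Origin licensing was split: CDC6 rose, and the other 3 genes of this group did not pass. CDC6, the ATPase that loads the MCM ring together with CDT1, had 45.1 and 49.1 CPM in the reporter-positive libraries and 39.0 and 39.0 CPM in the reporter-negative libraries (log2 fold change 0.27, SE 0.07; adjusted p = 0.0101). CDT1, its partner, had 15 and 14.9 CPM in the reporter-positive libraries, against 15.4 and 15.5 CPM in reporter-negative libraries (adjusted p = 0.766). The ratio of CDC6 to CDT1 counts was 3.00 and 3.30 in the reporter-positive libraries, above the 2.53 and 2.51 of the reporter-negative libraries. ORC1, the largest subunit of the origin recognition complex, had a log2 fold change of -0.19 (SE 0.11; adjusted p = 0.234), and ORC6, its smallest subunit, of -0.17 (SE 0.09; adjusted p = 0.173). Both lay lower in both reporter-positive libraries, at 8.82 and 8.28 CPM against 9.70 and 9.82 CPM for ORC1. Of all genes tested, 29.5% lay lower in this way. CDC6 lost its call with total-count scaling and without either reporter-negative library.

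The 6 subunits of the MCM ring did not move together. MCM2, MCM4 and MCM7 rose, MCM3 fell, and MCM5 and MCM6 did not pass. MCM3 had 94.0 and 103.9 CPM in the reporter-positive libraries, against 124.2 and 125.6 CPM in the reporter-negative libraries. The means were 99.0 ± 7.00 and 125 ± 0.933 CPM (SD, n = 2 each), and the log2 fold change was -0.34 (SE 0.07; edgeR, adjusted p = 0.00207). MCM7 had 117 and 122 CPM in the reporter-positive libraries, against 99.1 and 105 CPM in the reporter-negative libraries (0.23, SE 0.07; adjusted p = 0.0269). Per kilobase of exon the means were 27.1 CPM for MCM3 and 27.3 CPM for MCM7 in the reporter-positive line, against 34.2 CPM for MCM3 and 23.3 CPM for MCM7 in the reporter-negative line.

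MCM2 had 45.3 and 51.4 CPM in the reporter-positive libraries and 40.2 and 40.9 CPM in the reporter-negative libraries (log2 fold change 0.25, SE 0.08; adjusted p = 0.0205). MCM4 had 68.4 and 74.4 CPM in the reporter-positive libraries and 59.0 and 60.4 CPM in the reporter-negative libraries (0.26, SE 0.07; adjusted p = 0.0129). In these subunits every reporter-positive library was above every reporter-negative library, as in 28.2% of all genes tested. MCM6 had 25.5 and 26.4 CPM, against 22.7 and 22.3 CPM in reporter-negative libraries, and did not pass (0.21, SE 0.08; adjusted p = 0.0631). MCM5 had 40.1 and 41.4 CPM, against 42.3 and 43.1 CPM in reporter-negative libraries (-0.07, SE 0.07; adjusted p = 0.579). The level of MCM3 was also set against the geometric mean of the other 5 within each library. It was 1.82 and 1.89 times that mean in the reporter-positive line, against 2.65 and 2.63 times in the reporter-negative line, a log2 difference of -0.51 that no scaling of libraries can alter. MCM3 was called under 11 of 13 settings, and lost its call without either reporter-negative library, as did MCM2, MCM4 and MCM7, which also lost theirs with total-count scaling. MCM2 lost its call without reporter-positive library 2 as well.

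Promoter windows of MCM3, which fell, of MCM2, which rose, and of MCM6, which did not pass, are given with their E2F spellings in capitals, since genes with opposite outcomes all hold them. MCM3 holds 2 separate matches, MCM2 holds 2 that overlap on opposite strands, and MCM6 holds 4 in 2 overlapping pairs. MCM2 is on the forward strand of its chromosome and MCM3 and MCM6 are on the reverse strand, and each window is written in the direction of its gene.
MCM3 chr6:52284693-52284992: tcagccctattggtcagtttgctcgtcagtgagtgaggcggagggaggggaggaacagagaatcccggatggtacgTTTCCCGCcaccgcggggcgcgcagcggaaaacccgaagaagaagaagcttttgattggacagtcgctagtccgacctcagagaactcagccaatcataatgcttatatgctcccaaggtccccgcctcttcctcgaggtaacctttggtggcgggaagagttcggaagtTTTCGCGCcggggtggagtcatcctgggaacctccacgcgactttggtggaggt
MCM2 chr3:127598161-127598460: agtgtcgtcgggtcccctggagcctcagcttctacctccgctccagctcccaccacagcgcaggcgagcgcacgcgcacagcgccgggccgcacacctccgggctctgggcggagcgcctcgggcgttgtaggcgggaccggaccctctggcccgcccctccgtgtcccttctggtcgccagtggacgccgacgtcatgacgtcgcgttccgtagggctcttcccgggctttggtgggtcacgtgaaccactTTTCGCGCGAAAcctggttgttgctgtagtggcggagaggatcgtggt
MCM6 chr2:135876394-135876693: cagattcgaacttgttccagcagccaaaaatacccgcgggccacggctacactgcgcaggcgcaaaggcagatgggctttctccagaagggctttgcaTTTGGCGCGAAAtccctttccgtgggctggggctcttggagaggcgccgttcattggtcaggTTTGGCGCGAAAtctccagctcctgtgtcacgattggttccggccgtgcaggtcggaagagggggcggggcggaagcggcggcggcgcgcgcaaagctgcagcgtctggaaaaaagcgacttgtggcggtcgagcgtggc
In GENCODE, MCM3 lies at chr6:52264009-52284881, MCM2 at chr3:127598223-127622436 and MCM6 at chr2:135839626-135876426.

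MCM7, at chr7:100092728-100101940 on the reverse strand, carries 3 microRNA genes within its span, which are known to be processed from its transcript. Their mature sequences are shown with the seed, bases 2 to 8, in capitals, because the gene that rose is also their host. The seeds of miR-106b-5p and miR-93-5p are the same.
hsa-miR-106b-5p: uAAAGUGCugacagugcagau
hsa-miR-93-5p: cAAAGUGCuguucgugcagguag
hsa-miR-25-3p: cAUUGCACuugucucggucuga
Reads over the hairpin genes were few and are no measure of mature microRNA. MIR106B had 18 and 19 counts in the reporter-positive libraries and 14 and 12 in the reporter-negative libraries. MIR93 had 16 and 10, against 17 and 13 in reporter-negative libraries, and MIR25 had 45 and 30, against 42 and 34 in reporter-negative libraries. None of the 3 passed the test, at adjusted p of 0.403, 0.930 and 0.896 in that order, and at this depth a difference was not detectable.

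Helicase activation held 3 genes that rose, GINS1, CDC45 and GINS4, and none that fell. GINS1, a subunit of the GINS tetramer, had 21.4 and 20.6 CPM in the reporter-positive libraries and 16.1 and 15.9 CPM in the reporter-negative libraries. That difference was larger than the spread within either line (log2 fold change 0.39, SE 0.08; edgeR, adjusted p = 0.00116). GINS1 lies at chr20:25407727-25452628 on the forward strand, and its promoter window, with 1 E2F spelling in capitals just after the start, is shown because the gene passed under all 13 settings.
GINS1 chr20:25407423-25407722: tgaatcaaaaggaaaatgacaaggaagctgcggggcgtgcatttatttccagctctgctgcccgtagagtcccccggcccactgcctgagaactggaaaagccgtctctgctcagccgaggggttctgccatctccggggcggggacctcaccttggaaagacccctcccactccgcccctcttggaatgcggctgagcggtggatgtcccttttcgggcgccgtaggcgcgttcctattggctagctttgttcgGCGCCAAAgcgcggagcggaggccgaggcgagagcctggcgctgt
CDC45, which joins MCM and GINS in the working helicase, had 13.6 and 12.8 CPM in the reporter-positive libraries and 10.4 and 10.2 CPM in the reporter-negative libraries (0.36, SE 0.10; adjusted p = 0.00794). GINS4 had 32.8 and 34.1 CPM, against 25.7 and 27.6 CPM in reporter-negative libraries (0.33, SE 0.08; adjusted p = 0.00319).

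The remaining genes of that group did not pass. GINS3 had 8.57 and 8.63 CPM in the reporter-positive libraries, against 6.96 and 7.29 CPM in the reporter-negative libraries (0.27, SE 0.11; adjusted p = 0.0963). GINS2 had 6.96 and 7.67 CPM, against 6.54 and 6.69 CPM in reporter-negative libraries (adjusted p = 0.463). MCM10, which helps GINS and CDC45 open the helicase, had 14.1 and 13.9 CPM, against 15.1 and 16.7 CPM in reporter-negative libraries (-0.19, SE 0.09; adjusted p = 0.157). All 4 GINS subunits thus had both reporter-positive libraries above both reporter-negative libraries, and MCM10 had both below. Of all genes tested, 28.2% lay above in this way and 29.5% below, so a single such gene says little. CDC45 lost its call with total-count scaling and without either reporter-negative library, and GINS4 with total-count scaling and without reporter-negative library 1. The count of genes lower in this group was 0, and 0 at an unadjusted p under 0.05, with DESeq2 and limma-voom also giving 0.

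Among polymerases and primase, POLA1 rose and the other 3 did not pass. POLA1, the catalytic subunit of the polymerase that extends primers, had 128 and 151 CPM in the reporter-positive libraries and 113 and 115 CPM in the reporter-negative libraries (0.29, SE 0.08; adjusted p = 0.0117). The processed pseudogene EEF1B2P3 lies inside its span without sharing an exon base and held counts equal to 81.9% of those of POLA1. Subtracting the counts of genes inside it from those of POLA1 left 1545 and 1316 in the reporter-positive libraries and 1334 and 1274 in the reporter-negative libraries. The log2 fold change was then 0.25 (edgeR, adjusted p = 0.0232). The subtraction assumes that those reads had also been counted for POLA1, which is not known, as the counter is not given. PRIM1, the catalytic primase subunit, had 7.71 and 7.69 CPM, against 6.55 and 5.81 CPM in reporter-negative libraries (0.32, SE 0.12; adjusted p = 0.0691). POLE, the catalytic subunit of the leading-strand polymerase, differed by 0.09 (SE 0.08) and POLD1, that of the lagging-strand polymerase, by 0.08 (SE 0.07). POLD1 was at -0.0006 with total-count scaling, under which POLA1 lost its call, as it did without either reporter-negative library.

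In the group of clamp, clamp loader and lagging strand, RFC3 and FEN1 rose and the other 5 genes did not pass. RFC3, a subunit of the clamp loader, had 27.6 and 28 CPM in the reporter-positive libraries and 23.0 and 21.6 CPM in the reporter-negative libraries (0.32, SE 0.08; adjusted p = 0.00489). The other loader subunits spread to both sides of 0, with log2 fold changes of 0.18 for RFC4 (SE 0.08), 0.11 for RFC2 (SE 0.09) and -0.11 for RFC5 (SE 0.08). FEN1, the nuclease that trims Okazaki fragments, had 61.6 and 66.6 CPM, against 51.4 and 55.5 CPM in reporter-negative libraries (0.26, SE 0.07; adjusted p = 0.0133). LIG1, the ligase that seals those fragments, had 52.7 and 53.6 CPM, against 46.6 and 47.5 CPM in reporter-negative libraries, with no overlap, and did not pass (0.18, SE 0.07; adjusted p = 0.0832).

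PCNA, the sliding clamp and a common proliferation marker, had 62.1 and 68.9 CPM in the reporter-positive libraries and 62.1 and 61.9 CPM in the reporter-negative libraries. Its log2 fold change of 0.08 (SE 0.07; adjusted p = 0.516) was near the size of its error, and turned to -0.01 with total-count scaling. At 44.5 CPM per kilobase of exon in the reporter-positive line and 42.1 in the reporter-negative line it had the highest level per length of the 37 genes, and CCNE1, at 0.639 and 0.668, the lowest. RFC3 lost its call with total-count scaling and without reporter-negative library 2, and FEN1 with total-count scaling and without either reporter-negative library.

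All 4 genes of nucleotide supply rose in the reporter-positive line. RRM2, the regulated small subunit of ribonucleotide reductase, had 70.2 and 75.2 CPM in the reporter-positive libraries and 52.2 and 53.0 CPM in the reporter-negative libraries. Its means of 72.7 ± 3.56 and 52.6 ± 0.546 CPM (SD, n = 2 each) gave a log2 fold change of 0.47 (SE 0.07; edgeR, adjusted p = 5.12e-05). RRM1, the large subunit, had 58.1 and 66.5 CPM in the reporter-positive libraries and 52.3 and 52.0 CPM in the reporter-negative libraries (0.26, SE 0.08; adjusted p = 0.0184). The ratio of RRM2 to RRM1 counts was 1.21 and 1.13 in the reporter-positive line, against 0.998 and 1.02 in the reporter-negative line. TK1, which phosphorylates salvaged thymidine, had 55.1 and 57.6 CPM, against 45.2 and 46.8 CPM in reporter-negative libraries (0.29, SE 0.07; adjusted p = 0.00456). TYMS, which makes thymidylate anew, had 62.1 and 63.2 CPM, against 55.1 and 51.6 CPM in reporter-negative libraries (0.23, SE 0.07; adjusted p = 0.022). With total-count scaling, and without either reporter-negative library, RRM2 was the 1 gene of these 4 that passed, and RRM1 lost its call without reporter-positive library 2 too.

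RRM2 spans chr2:10120698-10131419 on the forward strand in GENCODE, and RefSeq gives it 2 start windows that begin further inside this span. The window of the second is printed because the gene had the largest rise and holds no E2F spelling searched for here. Its capitals mark 3 copies of CCAAT.
RRM2 chr2:10122489-10122788: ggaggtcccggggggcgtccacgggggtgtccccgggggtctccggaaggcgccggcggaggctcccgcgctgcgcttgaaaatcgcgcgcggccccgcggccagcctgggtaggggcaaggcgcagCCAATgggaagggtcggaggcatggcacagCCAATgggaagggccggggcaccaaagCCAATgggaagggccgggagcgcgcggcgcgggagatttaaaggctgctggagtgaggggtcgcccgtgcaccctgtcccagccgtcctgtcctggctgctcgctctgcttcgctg
RRM2 also has pseudogene copies elsewhere in the genome, between which reads may be split. RRM2P3, on chromosome X, had 723 and 748 counts in the reporter-positive libraries and 602 and 564 in the reporter-negative libraries, equal to 17.7% of the RRM2 counts, and differed by 0.46 (adjusted p = 0.00365). These counts do not measure how many reads were exchanged with RRM2, so the size of the uncertainty is not known. RRM2 also overlaps AC007240.1, described below.

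**Figure D2:**
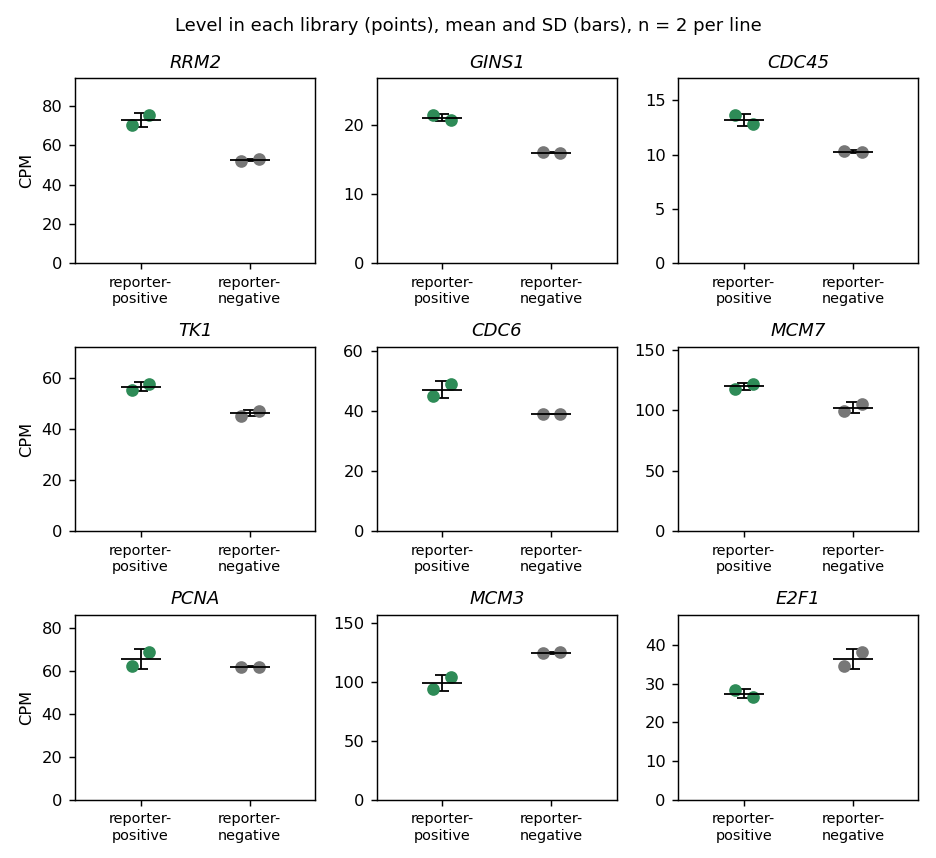
CPM of 9 of the 37 genes, on a vertical axis from 0, in each library: green points are the reporter-positive libraries and grey points the reporter-negative libraries, with mean and SD as bars (n = 2 per line). RRM2, GINS1, CDC45, TK1, CDC6 and MCM7 stand higher in the reporter-positive line, E2F1 and MCM3 lower, and the PCNA points meet at 62.1 CPM.

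Neither gene of chromatin copying passed. UHRF1, which reads hemimethylated DNA behind the fork, had 37.6 and 38.1 CPM in the reporter-positive libraries and 39.8 and 37.8 CPM in the reporter-negative libraries (adjusted p = 0.798). CHAF1A, the large subunit of the chromatin assembly factor that deposits histones on new DNA, had 32.4 and 29 CPM, against 27.3 and 28.2 CPM in reporter-negative libraries (0.15, SE 0.08; adjusted p = 0.22). The values of UHRF1 overlapped between the lines and those of CHAF1A did not. The count of calls was also 0 at an unadjusted p under 0.05 in edgeR, and 0 by DESeq2 and limma-voom. CHAF1A was called higher without reporter-positive library 2 (0.21; adjusted p = 0.0314) and was at 0.07 without reporter-positive library 1 (adjusted p = 0.63).

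Several of the 37 genes share their place in the genome with other genes, and whether reads were counted by strand is not given in the sources used here. A value may therefore hold reads of an overlapping gene. Of the 37 genes, 17 overlap a gene with at least 10% of their own counts. The other 20 had 6 higher and 2 lower calls, beside 11.6% higher and 10.9% lower of all genes tested. Their median log2 fold change was 0.03, against 0.18 for all 37. RRM2 overlaps AC007240.1, which holds 113% of its counts over 85.4% of its exon bases and differed by 0.44, so their reads cannot be told apart. GINS4 shares 80.0% of its exon bases with GPAT4-AS1, which holds 97.6% of its counts, and contains ENSG00000253174 with 73.3%. With the counts of the genes inside it subtracted, GINS4 differed by 0.41 (edgeR, adjusted p = 0.0103). TYMS shares 39.1% of its exon bases with ENOSF1, which holds 99.0% of its counts and differed by 0.21, and also overlaps TYMSOS with 22.5%.

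FEN1 shares 86.2% of its exon bases with FADS2, a fatty acid desaturase gene with 1223% of its counts and a log2 fold change of -0.07, and overlaps TMEM258, with 81.2%. PRIM1 overlaps NACA with 1523% of its counts, ENSG00000285625 with 650% and HSD17B6 with 25.3%. CCNE2 shares 45.0% of its exon bases with INTS8, which holds 236% of its counts, and overlaps NDUFAF6 with 359%. Large partners that touch only the end of a gene were EIF4A2 at RFC4 (1097%), GSE1 at GINS2 (604%), WSB2 at RFC5 (317%), UBXN6 at CHAF1A (173%) and TPRA1 at MCM2 (43.3%). Smaller ones were ENSG00000285600 at MCM2 (28.4%), ENSG00000269534 in LIG1 (25.0%), AP4M1 at MCM7 (17.1%), ENSG00000142539 at POLD1 (14.5%), ENSG00000267255 in CHAF1A (13.1%), ENSG00000276131 in GINS3 (12.5%), ENSG00000276672 in RFC3 (11.2%) and ENSG00000277873 in RFC5 (10.9%). Taking the counts of genes wholly inside a member from it left the calls at 14 higher and 2 lower, and RFC3 then differed by 0.36 (adjusted p = 0.00218). That setting assumes that reads of an inner gene were also counted for the member, which is not known. It also leaves partial overlaps in place, among them AC007240.1 at RRM2, FADS2 at FEN1, ENOSF1 at TYMS, GPAT4-AS1 at GINS4 and TPRA1 at MCM2. The setting therefore cannot show the part of overlapping genes in the calls.

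The genes next to a member on its chromosome moved with some of them. For each gene, the median log2 fold change was taken over up to 20 tested genes on each side that do not overlap it. Around MCM3 that median was -0.32, with 14 of 40 neighbours called lower and 2 higher, beside -0.34 for MCM3. Around E2F1 it was -0.28, with 12 of 40 called lower, beside -0.41 for E2F1. MCM10, with 22 of 40 neighbours called lower and a median of -0.38, ORC6, with -0.27, and CDT1, with -0.15, were the other genes below 0 whose neighbours had a median under -0.1. TYMS lay among genes with a median of 0.25, close to its own 0.23. RRM2 and GINS1 lay among genes with medians of 0.03 and 0.00, and CDC45 and TK1 were higher than their neighbours' -0.18 and -0.17. The part of the surrounding region in these values was not tested.

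**Figure D3:**
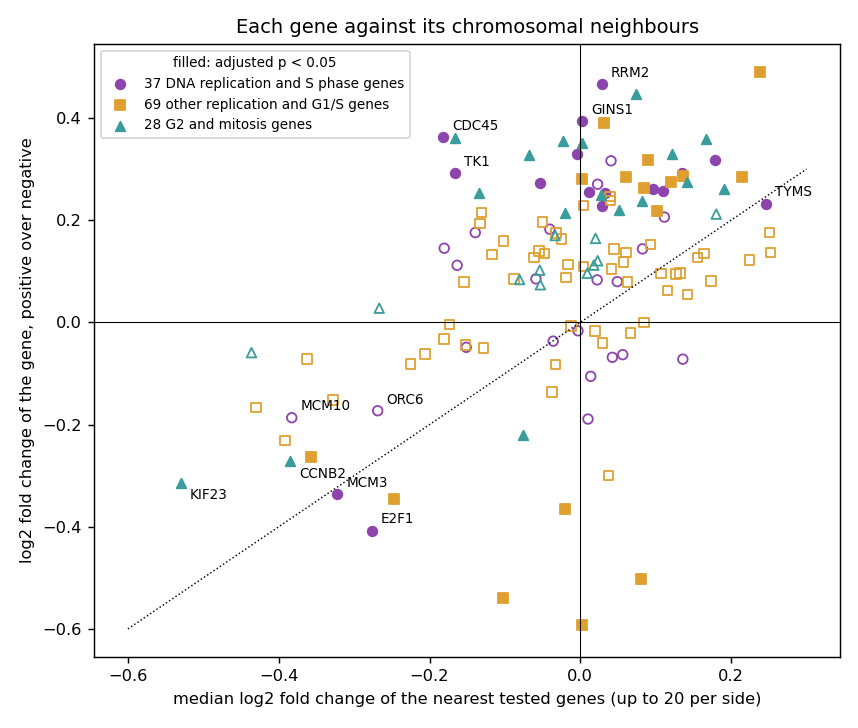
Log2 fold change of each gene (vertical axis) against the median log2 fold change of its nearest tested genes on the chromosome (horizontal axis); purple circles are the 37 genes, orange squares 69 other replication and G1/S genes and teal triangles 28 G2 and mitosis genes, filled where adjusted p is under 0.05, with the dotted line marking equal values. MCM3 at -0.34 and TYMS at 0.23 lie near the line, and RRM2 at 0.47 and GINS1 at 0.39 lie far above it.

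A wider list of 69 other replication, nucleotide, chromatin assembly and G1/S control genes held 10 genes called higher and 6 called lower, while 53 did not pass. These are 14.5% higher and 8.70% lower, near the 11.6% and 10.9% of all genes tested and below the 16.4% and 17.0% of protein-coding genes in the range of the 37, with a median log2 fold change of 0.10. The 10 with the smallest adjusted p are given. NASP, a histone chaperone, had 124 and 120 CPM in the reporter-positive libraries and 93.0 and 93.3 CPM in the reporter-negative libraries (0.39; edgeR, adjusted p = 0.00034). DSCC1, part of an alternative clamp loader, had 8.04 and 9.12 CPM, against 6.11 and 6.09 CPM in reporter-negative libraries (0.49; adjusted p = 0.00453). CCNA2, the cyclin of S phase and G2, rose by 0.32, TOPBP1, which helps fire origins, by 0.29, and WDHD1, which ties polymerase alpha to the helicase, by 0.28 on the log2 scale. Every reporter-positive library was above every reporter-negative library for these 5 genes, which were picked by a test on those same libraries. Their separation therefore adds nothing to that test. In the whole list both reporter-positive libraries lay above both reporter-negative libraries for 55.1% of genes and below them for 18.8%. The shares of all genes tested were 28.2% and 29.5%.

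The genes that fell among these 10 had unlike roles, and included repressors of the cycle, a subunit that removes CDK inhibitors and a component of the polymerase machinery. SAMHD1, the other gene of the list that fell, was named after its values were seen. It differed by -0.26 (edgeR, adjusted p = 0.0198), with a neighbour median of -0.36. RB1 and RBL1, other RB family genes of the list named after their values were seen, did not pass (0.09 and -0.07; edgeR, adjusted p = 0.401 and 0.642). E2F7 and E2F8, atypical E2F factors that repress E2F targets, had log2 fold changes of -0.50 and -0.59 (adjusted p = 6.4e-05 and 0.00156). E2F7 had 136 and 125 CPM in the reporter-positive libraries and 195 and 174 CPM in the reporter-negative libraries, and E2F8 had 5.29 and 4.77 CPM, against 7.86 and 7.33 CPM in reporter-negative libraries. Their neighbours' medians were 0.08 and 0.00. RBL2, an RB family protein that holds E2F targets silent out of cycle, fell by 0.35 on the log2 scale (adjusted p = 0.0014), with a neighbour median of -0.25. SKP2, the ubiquitin ligase subunit that removes CDK inhibitors, fell by 0.37 (adjusted p = 0.0065). POLD4, the small accessory subunit of polymerase delta, had 27.9 and 26.3 CPM in the reporter-positive libraries and 38.1 and 40.7 CPM in the reporter-negative libraries (-0.54; adjusted p = 1.97e-05). With total-count scaling 3 of the 69 were higher and 8 lower, against 10 and 6 in the main fit. The balance of calls in this list thus turned downward. Over all genes tested that scaling gave 2270 higher, or 7.33%, and 4032 lower. The count of higher genes was also below that of the main fit without either reporter-negative library, and lower calls outnumbered higher ones there too.

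Genes of G2 and mitosis, which mark the later part of the cycle, had 14 of 28 called higher and 3 lower, with a median log2 fold change of 0.21. These are 50% and 10.7%, beside 11.6% and 10.9% of all genes tested, so the share called lower was near that of all genes. CCNB1, a mitotic B cyclin, had 104 and 114 CPM in the reporter-positive libraries and 86.6 and 83.5 CPM in the reporter-negative libraries (0.35; adjusted p = 0.00126). BIRC5 rose by 0.36, NUF2 by 0.33 and TTK by 0.36, all of them parts of chromosome attachment or its checkpoint. The 3 that fell, named after their values were seen, were CCNB2, the other B cyclin here (-0.27; adjusted p = 0.016), KIF23, a kinesin of cytokinesis (-0.31; adjusted p = 0.0036), and TPX2, a spindle assembly factor (-0.22; adjusted p = 0.0373). CCNB2 had 27.9 and 31.7 CPM in the reporter-positive libraries, against 35.4 and 36.5 CPM in the reporter-negative libraries. The neighbour medians of CCNB2 and KIF23, both on chromosome 15, were -0.38 and -0.53, and that of TPX2 was -0.08. Within each library the geometric mean of the 37 replication genes was 0.438 and 0.425 times that of the 28 mitosis genes in the reporter-positive line, against 0.443 and 0.446 times in the reporter-negative line. The log2 difference of that ratio was -0.04. The mitosis count was 7 of 28 with total-count scaling, beside 7.33% of all genes tested called higher. It was also below 14 without either reporter-negative library.

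CDK inhibitors and CCNG2, a cyclin found in resting cells, were set beside these values as marks of cells out of cycle. CDKN1A, which encodes p21, had 66.5 and 69.6 CPM in the reporter-positive libraries and 95.7 and 102 CPM in the reporter-negative libraries, a log2 fold change of -0.54 (edgeR, adjusted p = 1.03e-05). CDKN1B differed by 0.09 (adjusted p = 0.462), CDKN1C by -0.33 (adjusted p = 0.0595) and CCNG2 by 0.13 (adjusted p = 0.215). CDKN2B had 3 and 2 counts in the reporter-positive libraries and 0 and 0 in the reporter-negative libraries. The part of a changed share of cycling cells in the values above was not tested.

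**Figure D4:**
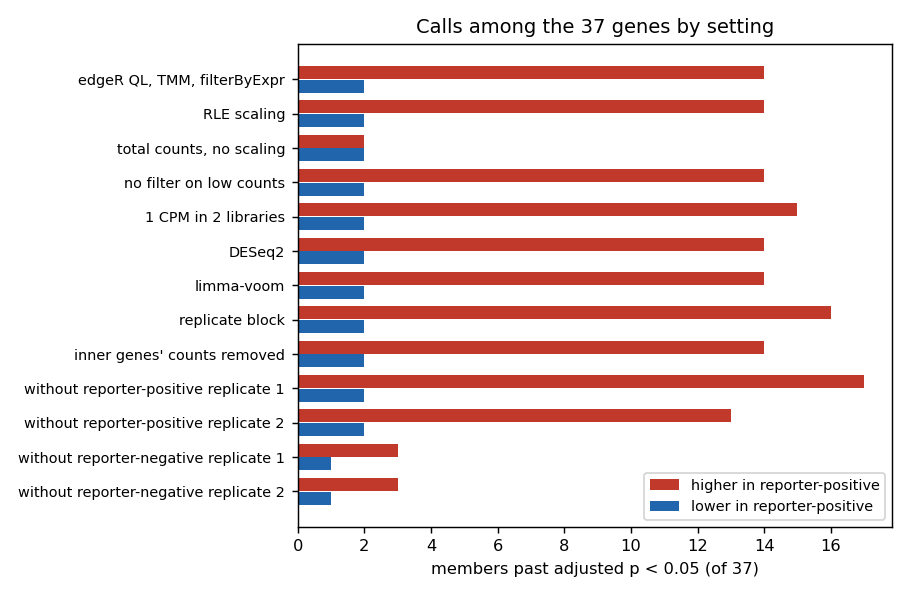
Number of the 37 genes past an adjusted p of 0.05 (horizontal axis) under each of 13 settings (vertical axis), with higher calls in red and lower calls in blue. The main setting gave 14 higher and 2 lower, total counts without scaling gave 2 and 2, and leaving out either reporter-negative library gave 3 and 1.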

How the data were processed

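RNA was sequenced from 2 reporter-positive and 2 reporter-negative libraries, made from 1 ug of RNA each, per the labels' protocols. The authors deposited raw, unnormalized counts by Ensembl gene in 1 table. HISAT2, Bowtie2, DESeq2 and the build hg19 are named without roles or versions, per the submitters' processing notes. Not given in the sources used here: the counter, its annotation, its strand setting. All 43714 IDs are in GENCODE release 29 (GRCh38), which supplied 43289 current symbols and the coordinates.

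Counts were tested in edgeR 4.0.16 (R 4.3.3) with TMM scaling, filterByExpr (minimum count 10, minimum total 15), a robust quasi-likelihood fit with line as its term, and Benjamini-Hochberg adjustment over 30952 genes at 0.05. CPM use the TMM-scaled library size. The code was tested on simulated data. Alternatives were RLE scaling, total counts, no filter, at least 1 CPM in 2 libraries, DESeq2 1.42.0, limma-voom (limma 3.58.1), a replicate block, leaving out each library, and removing the counts of genes inside a member. No pairing of samples by library number was seen: same-numbered libraries had a correlation of -0.0258 in their deviations. With 2 libraries a line this is a single value over all genes, and a pairing in part of the genes was not tested. Libraries of a line differed beyond counting noise (chi-square per degree of freedom 19.3 in the reporter-positive and 37 in the reporter-negative line).

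Named were all 37 genes, the 10 and 4 smallest adjusted p of the wider replication and mitosis lists, overlapping genes with at least 10% of a member's counts, microRNAs inside MCM7, marker genes, and pseudogene copies, the last chosen after their values were seen. The members and lists were chosen with earlier results of these data known, and no test was made of a list as a whole. Promoter and microRNA sequences are from RefSeq (GRCh38.p14).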

Additional observations from a re-analysis of the deposited data

How the results depend on the processing

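Between the fit reported and RLE scaling, no filter, a filter of 1 CPM in 2 libraries, DESeq2, limma-voom and the removal of inner genes' counts, the 37 genes gave 14 or 15 higher calls and 2 lower calls. With total counts and no scaling factors 2 of the 37 genes were higher. So were 3 of the 69 other replication genes and 7 of the 28 mitosis genes. The counts of lower genes were 2, 8 and 3 in that order. Over all genes 2270 were higher and 4032 lower, 36% higher in place of 51.5%. No pairing by library number was seen over all genes. With the replicate block 16 of the 37 were higher and 2 lower, with 15 and 7 of the 69 and 14 and 3 of the 28. Over all genes the block gave 4175 higher and 4051 lower, against 3576 and 3366 in the main fit. When a library was left out, the lone library of its line was taken to vary like the other line. Then 3 to 17 of the 37 were higher and 1 to 2 lower, 2 to 18 of the 69 higher and 4 to 10 lower, and 4 to 20 of the 28 higher and 0 to 3 lower. The 0 came without reporter-negative library 1, where edgeR had 2 of the 28 lower at an unadjusted p under 0.05, and the other tools were not run on that subset. Without that library 2333 genes of all tested were higher and 2025 lower. Of the 51 named genes of the lists, the sign turned for 5, none of which had passed. PCNA was at -0.0066 and POLD1 at -0.0006 with total counts, and leaving out a library gave -0.0034 to 0.16 for PCNA, -0.13 to 0.11 for E2F2, -0.18 to 0.065 for CCNE1 and -0.078 to 0.0064 for UHRF1, of which PCNA turned without reporter-positive library 2 and the other 3 without reporter-negative library 1. The cause of these changes was not tested. Depth limits CCNE1 and E2F2 most, at 1.56 to 4.36 CPM, and the design of 2 libraries a line limits all values.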

Other observations

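Processed copies of 3 of the 37 genes elsewhere in the genome had counts of their own. RRM2P2, on chromosome 1, had 153 and 149 counts in the reporter-positive libraries and 122 and 109 in the reporter-negative libraries, 3.57% of those of RRM2. FEN1P1, on chromosome 1, had 129 and 124 counts in the reporter-positive libraries and 102 and 118 in the reporter-negative libraries. PCNAP3, on chromosome X, had 38 and 38 counts in the reporter-positive libraries and 44 and 49 in the reporter-negative libraries. None of these 3 copies passed the test (edgeR, adjusted p = 0.0631, 0.299 and 0.776 in that order). RRM2 stood at 2.67 and 2.78 times the geometric mean of the other 36 genes in the reporter-positive libraries, against 2.11 and 2.14 times in the reporter-negative libraries. E2F1 was 7.08 and 6.66 times E2F2 in the reporter-positive libraries, against 7.93 and 10.3 times in the reporter-negative libraries. Markers of leukocytes, fibroblasts, neurons or glia and hepatocytes stood at 5.84 CPM or less in each library, with LUM, a fibroblast gene, at 3.19 CPM in the reporter-positive line and 1.89 CPM in the reporter-negative line (adjusted p = 0.00557). PECAM1, an endothelial gene, averaged 67.4 CPM in the reporter-positive line and 81.0 CPM in the reporter-negative line, while CDH5, the other endothelial marker, was at 0.396 and 0.241 CPM. The windows that held CCAAT were 79.3% of those of the mitosis genes, and the E2F spellings were in 10.3% of them and in 25.6% of those of the 69 other replication genes.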
